A study of Mus musculus with 165 samples.

Results

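The 10 genes described here encode 8 cathepsins (Ctsa, Ctsb, Ctsc, Ctsd, Ctsh, Ctsl, Ctss and Ctsz) and 2 lysosomal membrane proteins (Cd68 and Lamp1). They were taken by symbol from count tables that list 55471 Ensembl gene identifiers for each tissue, and each symbol matched 1 identifier. The 10 genes passed the filter on low counts in both tissues (18711 brain genes and 15579 liver genes were tested). RNA was sequenced from the brain and the liver of 83 C57BL/6J/Ukj mice kept for aging, with polyA enrichment and a stranded library kit. Age was the condition compared: brain libraries numbered 15, 16, 16, 17 and 18 at 3, 9, 15, 24 and 28 months, and liver libraries 16, 16, 16, 17 and 18. No mouse is labelled with a genotype other than the strain or with a treatment, and the labels name neither the sex nor the part of the brain or liver taken. Libraries were made in 3 preparation batches, each holding 4 to 7 libraries of every age and tissue. The libraries held between 11460600 and 73390200 gene counts in the brain and between 5823040 and 57490200 in the liver (6 significant digits).

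Cathepsins are proteases that work mainly in the acidic interior of the lysosome, where they take apart proteins delivered by endocytosis and autophagy. Most are made as inactive precursors and are cut into their active form inside the lysosome. Ctsb, Ctsc, Ctsh, Ctsl, Ctss and Ctsz are cysteine proteases, Ctsd is an aspartic protease and Ctsa is a serine carboxypeptidase. Macrophages are rich in lysosomes, and in the brain and liver they are represented by microglia and by Kupffer cells. Lamp1 coats the lysosomal membrane of nearly all cells, while Cd68 is a related, heavily glycosylated membrane protein used as a marker of macrophages.

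The genes lie on 8 chromosomes of GRCm38, in the GENCODE vM21 annotation. Ctsa spans chr2:164832873-164841032 on the plus strand, Ctsz chr2:174427493-174439039 on the minus strand, and Ctss chr3:95526786-95556403 on the plus strand. Ctsc spans chr7:88278085-88310888 on the plus strand, Ctsd chr7:142375911-142388038 on the minus strand, and Lamp1 chr8:13159161-13175338 on the plus strand. Ctsh spans chr9:90054152-90076089 on the plus strand, Cd68 chr11:69664213-69666153 on the minus strand, Ctsl chr13:64359337-64370890 on the minus strand, and Ctsb chr14:63122462-63145923 on the plus strand. In Ctsd, 34.4% of the exonic bases are shared with Gm49369, a gene annotated on the same strand, so reads there cannot be assigned to one of the genes by position alone. In Ctsl 6.09% is shared with Gm49230, a processed pseudogene on the same strand. Antisense or opposite-strand genes cover 26.8% of the exonic bases of Ctsl, 12.8% of Ctsb, 10.5% of Ctsa through Pltp and 6.87% through Neurl2, 9.31% of Lamp1 and 0.69% of Ctsz, and the strand setting of the counting is not given in the sources used here.

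RefSeq promoter windows of GRCm38.p6, each 300 bases long from 250 bases before to 50 bases after an annotated start, were found for 8 of the 10 genes (9 windows, of which Ctsa had 2). Both strands were searched for the E-box CACGTG, for the longer CLEAR core TCACGTGA that contains it, and for the PU.1 motif GAGGAAGT. The E-box is bound by the TFEB family of lysosomal gene regulators, and PU.1 is a factor of macrophages and other blood cells. Of all 32851 windows, 7.15% held the E-box, 0.974% the CLEAR core and 3.20% the PU.1 motif. Of 105 windows of 85 lysosomal genes from the lists used further on, 20% held the E-box, 10.5% the CLEAR core and 1.9% the PU.1 motif. The 5 windows printed are those in which at least 2 E-boxes or a PU.1 motif were found, to show what the letters look like around the start. Capitals mark the matched letters, and each window is written along the gene's own strand.
Ctsa, chr2:164833523-164833822, plus strand: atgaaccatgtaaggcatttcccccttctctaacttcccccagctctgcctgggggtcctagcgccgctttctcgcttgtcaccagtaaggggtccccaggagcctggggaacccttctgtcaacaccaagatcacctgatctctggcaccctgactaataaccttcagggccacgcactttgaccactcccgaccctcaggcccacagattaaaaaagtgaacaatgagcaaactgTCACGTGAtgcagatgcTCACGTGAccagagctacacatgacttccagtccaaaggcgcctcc
Ctsd, chr7:142387778-142388077, minus strand: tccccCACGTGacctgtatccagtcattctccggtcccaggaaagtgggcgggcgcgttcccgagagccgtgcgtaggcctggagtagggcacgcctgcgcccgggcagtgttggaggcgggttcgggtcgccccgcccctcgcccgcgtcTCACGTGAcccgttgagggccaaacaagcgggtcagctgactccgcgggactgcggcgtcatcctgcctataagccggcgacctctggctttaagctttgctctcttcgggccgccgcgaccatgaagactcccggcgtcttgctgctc
Lamp1, chr8:13158911-13159210, plus strand: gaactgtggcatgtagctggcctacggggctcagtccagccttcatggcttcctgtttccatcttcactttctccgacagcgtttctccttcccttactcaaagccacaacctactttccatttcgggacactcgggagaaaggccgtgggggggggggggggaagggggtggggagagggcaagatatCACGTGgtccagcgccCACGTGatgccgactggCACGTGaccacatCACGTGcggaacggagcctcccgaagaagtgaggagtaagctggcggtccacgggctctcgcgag
Ctss, chr3:95526536-95526835, plus strand: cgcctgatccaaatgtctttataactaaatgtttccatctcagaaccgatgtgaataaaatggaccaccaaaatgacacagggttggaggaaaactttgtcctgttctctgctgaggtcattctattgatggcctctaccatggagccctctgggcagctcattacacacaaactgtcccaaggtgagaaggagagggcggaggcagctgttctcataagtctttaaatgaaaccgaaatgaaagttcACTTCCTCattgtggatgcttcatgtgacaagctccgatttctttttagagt
Ctsc, chr7:88277835-88278134, plus strand: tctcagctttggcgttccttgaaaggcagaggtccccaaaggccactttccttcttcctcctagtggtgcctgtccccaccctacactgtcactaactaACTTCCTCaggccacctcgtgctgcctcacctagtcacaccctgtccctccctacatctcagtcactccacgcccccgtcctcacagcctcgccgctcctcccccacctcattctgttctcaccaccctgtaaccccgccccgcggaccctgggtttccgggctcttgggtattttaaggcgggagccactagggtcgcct
In the printed Ctsa window both E-boxes lie within a CLEAR core, and those cores begin 13 bases before and 4 bases after the start. The other Ctsa window, chr2:164832622-164832921, held none of the motifs searched. Ctsd has E-boxes at 245 and 98 bases before its start, the nearer of them inside a CLEAR core. Lamp1 has 4 E-boxes, at 61, 45, 28 and 15 bases before its start, and no CLEAR core. The PU.1 motif was found on the opposite strand in Ctss, across the start from position -2, and in Ctsc, from position -151. Ctsl, whose window is not printed, held 1 E-box, and the windows of Ctsz and Cd68, the genes whose levels follow Ctsd in the brain and Ctss in the liver most closely among the 10, held none of these motifs. These matches are a description of the sequence, not of binding.

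The labelled tissues were checked first. Snap25, a neuronal synaptic protein, was between 966 and 2769 counts-per-million (CPM, from library sizes scaled by the trimmed mean of M-values) in the brain and had 0 counts in 73 of 83 livers, with at most 40.4 CPM in the others. Alb, the albumin of hepatocytes, was at most 18.5 CPM in the brain and at least 14018 CPM in the liver. In the brain, 4 libraries had a median correlation with the other libraries below 0.980, namely replicate 15 at 28 months, replicate 13 at 24 months, and replicates 7 at 28 and at 9 months. Replicate 15 at 28 months stood farthest apart, with a median correlation of 0.852 and the fewest counts in the brain. Its summed neuron markers were 3604 CPM against a median of 6461 CPM at 28 months, and its summed microglia markers were 1237 CPM against 683 CPM. No liver library fell under the corresponding limit of 0.911. Brain results are therefore given with and without these libraries where they moved.

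In the brain, 8 of the 10 genes were higher at 28 than at 3 months and none was lower, against 16.3% of all tested genes called higher (edgeR's quasi-likelihood test, Benjamini-Hochberg adjusted p under 0.05 over all genes). Cd68, Ctsz, Ctss and Ctsd had the largest differences, of 0.58 to 0.71 on the log2 scale. Those of Ctsd and Ctsz were 0.19 and 0.42 without replicate 15 at 28 months, and Ctsc and Ctsl did not pass the test. The median log2 fold change of the 10 genes was 0.27, against 0.0083 over all tested genes. Without the 4 libraries that stood apart, the number called remained 8. Because whole tissue was sequenced, more cells of a type and more RNA per cell cannot be told apart here.

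Cd68, the macrophage membrane protein, was 5.91 CPM in the lowest, 7.54 in the median and 8.94 in the highest of the 15 brains at 3 months. At 28 months it was 10.6, 12.3 and 17.2 CPM in the lowest, median and highest of 18 brains. The 2 ages did not overlap: each of the 18 brains at 28 months lay above each brain at 3 months, a separation found for 36 of 18711 tested genes (0.192%). The difference was 0.71 ± 0.06 on the log2 scale (SE), a 1.63-fold rise, with an adjusted p of 1.1e-16 in edgeR's test. Its size was 0.70, 0.77 and 0.67 in the 3 preparations fitted alone. The medians at the 5 ages were 7.54, 8.54, 9.11, 11.1 and 12.3 CPM.

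Ctss, a cysteine protease that stays active at neutral pH and trims the invariant chain in antigen-presenting cells, was 47.6, 58.1 and 75.7 CPM (lowest, median, highest) at 3 months. It was 48.1, 90.4 and 152 CPM at 28 months. In 16 of 18 old brains it exceeded every young brain, and the lowest old value was that of replicate 15, the library that stood farthest apart. The log2 difference was 0.62 ± 0.07 (edgeR, adjusted p 1.0e-10). The preparations gave 0.64, 0.75 and 0.47.

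Ctsz, a carboxypeptidase also called cathepsin X, had 22.0, 26.3 and 34.8 CPM at 3 months. At 28 months it had 29.3, 36.9 and 147 CPM, with the next highest library at 52.3 CPM. All 18 old brains were above the young median, and 11 were above every young brain. The log2 difference was 0.63 ± 0.12 (edgeR, adjusted p 4.3e-05), and 0.42 without replicate 15 at 28 months, still past the test.

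Ctsd, the main aspartic protease of the lysosome, had 147, 167 and 239 CPM at 3 months. At 28 months it had 144, 197 and 1371 CPM, and the next highest library had 254 CPM. The highest value was again replicate 15, so that the mean at 28 months was 260 ± 278 CPM (SD, n = 18), and only 2 of 18 old brains exceeded every young one. The log2 difference of 0.58 ± 0.16 (edgeR, adjusted p 0.00554) was 0.08, 0.23 and 1.26 in the preparations, of which the last holds that library. Without that library the difference was 0.19, with an adjusted p of 0.0496 when the spread was re-estimated and 0.0515 when its trend was kept.

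Ctsh, an aminopeptidase of the cysteine class, was 6.86, 8.95 and 11.3 CPM at 3 months and 8.65, 11.0 and 22.3 CPM at 28 months. The log2 difference was 0.34 ± 0.09 (edgeR, adjusted p 0.00168). Ctsa, which also protects β-galactosidase and neuraminidase in a complex, was 71.6, 79.1 and 86.3 CPM at 3 months and 76.5, 88.2 and 157 CPM at 28 months. In 13 of 18 old brains it was above every young brain, and it rose by 0.19 ± 0.05 on the log2 scale (edgeR, adjusted p 0.00407). Ctsb, one of the most abundant lysosomal cysteine proteases, was 426, 448 and 478 CPM at 3 months and 415, 485 and 743 CPM at 28 months. Its rise was 0.14 ± 0.04 on the log2 scale (edgeR, adjusted p 0.00279), and 12 of 18 old brains lay above every young one. Without replicate 15 at 28 months the differences were 0.13 for Ctsa, 0.096 for Ctsb and 0.27 for Ctsh, all still past the test. That library was the highest old brain for Ctsa, Ctsb, Ctsd, Ctsh and Ctsz, and the lowest for Ctsc, Ctss and Lamp1.

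Lamp1 was 253, 270 and 327 CPM at 3 months and 198, 294 and 335 CPM at 28 months, and the ranges overlapped almost completely. Its log2 difference of 0.09 ± 0.03 passed the test with an adjusted p of 0.0314 (edgeR), which rose to at most 0.0618 when a single library was left out. The call ended without any one of replicates 3, 7 and 13 at 3 months or replicates 1 and 8 at 28 months, while the difference was 0.12 without replicate 15. Ctsl, an endopeptidase, was 59.3, 68.2 and 87.8 CPM at 3 months and 63.4, 73.8 and 90.5 CPM at 28 months, a log2 difference of 0.10 ± 0.05 (edgeR, adjusted p 0.111). Ctsc, the dipeptidyl peptidase that activates granule proteases, was 11.1, 14.2 and 22.4 CPM at 3 months and 5.28, 14.7 and 17.6 CPM at 28 months. Its log2 difference was -0.04 ± 0.08 (edgeR, adjusted p 0.755), and none of the 18 old brains exceeded every young one.

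**Figure D1:**
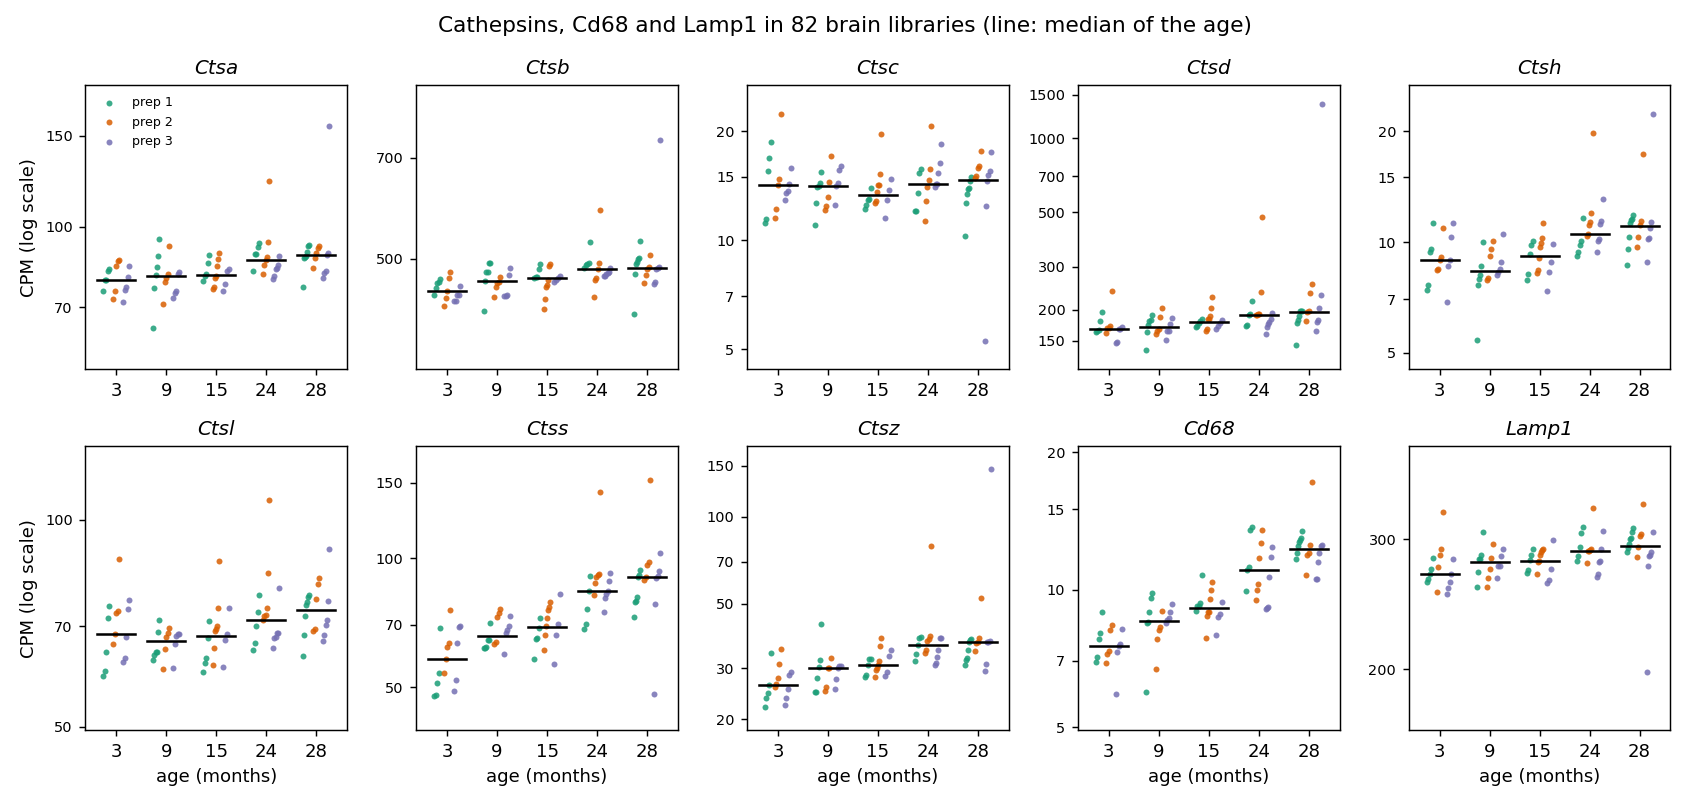
Level of the 10 genes in each of 82 brain libraries (CPM, log axis) against age in months; each point is 1 mouse, coloured by preparation, and each bar is the median of an age. Cd68 separates 28 from 3 months completely, while the single high point of Ctsd at 28 months is the library at 1371 CPM.

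The ages between 3 and 28 months showed when the brain levels parted. At 9 months 0 of the 10 genes were called against 3 months in edgeR's test (0.315% of all genes were called in either direction). Without adjustment 2 had a p under 0.05, DESeq2 called 0 and limma voom 2. At 15 months 1 of the 10 genes, Cd68, was called higher, by 0.28 ± 0.06 on the log2 scale (edgeR, adjusted p 0.0036; 0.524% of all genes were called higher). The number was 2 without the 4 libraries that stood apart, 3 by limma voom and 0 in each preparation alone, where Cd68 differed by 0.29, 0.28 and 0.26. At 24 months 5 genes were higher than at 3 months (6.19% of all genes): Cd68 by 0.56, Ctss by 0.55, Ctsz by 0.48, Ctsh by 0.28 and Ctsb by 0.11 on the log2 scale. The number was 8 without the 4 libraries that stood apart and also 8 without replicate 15 at 28 months alone.
From 15 to 24 months Ctss rose by 0.34 and Cd68 by 0.28 (edgeR, adjusted p 0.0039 and 0.00254), 2 of the 10 genes against 0.679% of all genes called higher. The number was 4 without replicate 15 at 28 months, 3 without the 4 libraries that stood apart, 5 by limma voom and 0 in each preparation alone. From 24 to 28 months 0 of the 10 genes were called in edgeR's test (1.09% of all genes in either direction), with 2 at an unadjusted p under 0.05, 0 by DESeq2 and 1 by limma voom. The median of Ctss across the 5 ages was 58.1, 65.8, 69.1, 84.0 and 90.4 CPM, and that of Ctsz 26.3, 30.0, 30.8, 36.1 and 36.9 CPM. Comparisons with 3 months share the same 15 libraries. Limma voom also called more of all genes than edgeR: 442 against 59 at 9 months and 822 against 163 at 15 months, each compared with 3 months. From 15 to 24 months it called 848 against 137, and from 24 to 28 months 899 against 204.

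In the liver, 9 of the 10 genes were higher at 28 than at 3 months (31.9% of all tested genes were called higher) and Lamp1 was lower (30.0% were called lower), all in edgeR's test. Ctss, Cd68 and Ctsc rose most, by 3.30-fold, 2.88-fold and 2.15-fold, and the other 6 cathepsins rose by 0.25 to 0.53 on the log2 scale. The median log2 fold change of the 10 genes was 0.40, against 0.0114 over all tested genes. Leaving out any single library kept all 10 calls.

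Ctss was 32.2, 36.9 and 166 CPM (lowest, median, highest) in 16 livers at 3 months. It was 50.2, 119 and 381 CPM in 18 livers at 28 months. Replicate 12 at 3 months carried the 166 CPM and the next highest young liver had 47.0 CPM, so 15 of 16 young livers lay below every old one. The log2 difference was 1.72 ± 0.23 (edgeR, adjusted p 2.1e-09), and 1.97 without that replicate. The preparations gave 2.19, 0.73 and 2.11, and the second, which holds replicate 12, gave 1.31 without it.

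Cd68 was 11.2, 14.0 and 40.0 CPM at 3 months, the highest again in replicate 12, with the next at 17.1 CPM. At 28 months it was 16.3, 34.2 and 180 CPM, the highest in replicate 9, with the next at 76.6 CPM. All 18 old livers were above the young median. The log2 difference was 1.53 ± 0.20 (edgeR, adjusted p 8.5e-10), with 2.11, 0.66 and 1.59 in the preparations. It was 1.69 without replicate 12 at 3 months and 1.30 without replicate 9 at 28 months. The spread between old livers was wide, with means of 45.6 ± 37.4 CPM for Cd68 and 149 ± 81.7 CPM for Ctss (SD, n = 18).

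Ctsc was 76.7, 104 and 312 CPM at 3 months and 160, 244 and 439 CPM at 28 months. Every old liver was above the young median, and 15 of 16 young livers were below every old one. The log2 difference was 1.10 ± 0.16 (edgeR, adjusted p 1.9e-08), with 1.07, 0.58 and 1.67 in the preparations. In the brain the same gene did not pass the test.

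The remaining cathepsins rose less in the liver. Ctsb was 572, 631 and 867 CPM at 3 months and 700, 877 and 1658 CPM at 28 months, a log2 difference of 0.53 ± 0.07 (edgeR, adjusted p 3.6e-09). Ctsl was 454, 578 and 676 CPM at 3 months and 472, 713 and 1245 CPM at 28 months, a difference of 0.42 ± 0.09 (edgeR, adjusted p 7.6e-05). Ctsa was 116, 147 and 179 CPM at 3 months and 139, 184 and 362 CPM at 28 months, a difference of 0.37 ± 0.06 (edgeR, adjusted p 2.7e-07). For these 3 genes the ages overlapped, with 10, 11 and 11 of 18 old livers above every young one.
Ctsd was 167, 223 and 277 CPM at 3 months and 204, 261 and 420 CPM at 28 months. Its log2 difference of 0.34 ± 0.07 (edgeR, adjusted p 4.3e-05) was 0.50, 0.02 and 0.43 in the preparations. Ctsh was 170, 200 and 230 CPM at 3 months and 191, 256 and 277 CPM at 28 months, a difference of 0.29 ± 0.05 (edgeR, adjusted p 8.0e-08). In Ctsh 13 of 18 old livers were above every young liver. Ctsz was 173, 207 and 266 CPM at 3 months and 176, 249 and 326 CPM at 28 months, a difference of 0.25 ± 0.05 (edgeR, adjusted p 3.6e-05).

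Lamp1, the general lysosomal membrane protein, was 572, 654 and 720 CPM at 3 months and 540, 599 and 752 CPM at 28 months. It fell by 0.13 ± 0.04 on the log2 scale (edgeR, adjusted p 9.5e-04), and 2 of 18 old livers were above the young median. The preparations gave -0.04, -0.18 and -0.20. Within the second preparation alone 0 of the 10 genes passed edgeR's test from 3 to 28 months, and 6 had an unadjusted p under 0.05. Without replicate 12 at 3 months the same preparation gave 4 calls, for Ctsb, Ctsc, Ctss and Cd68, against 8 and 10 calls in the other preparations.

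**Figure D2:**
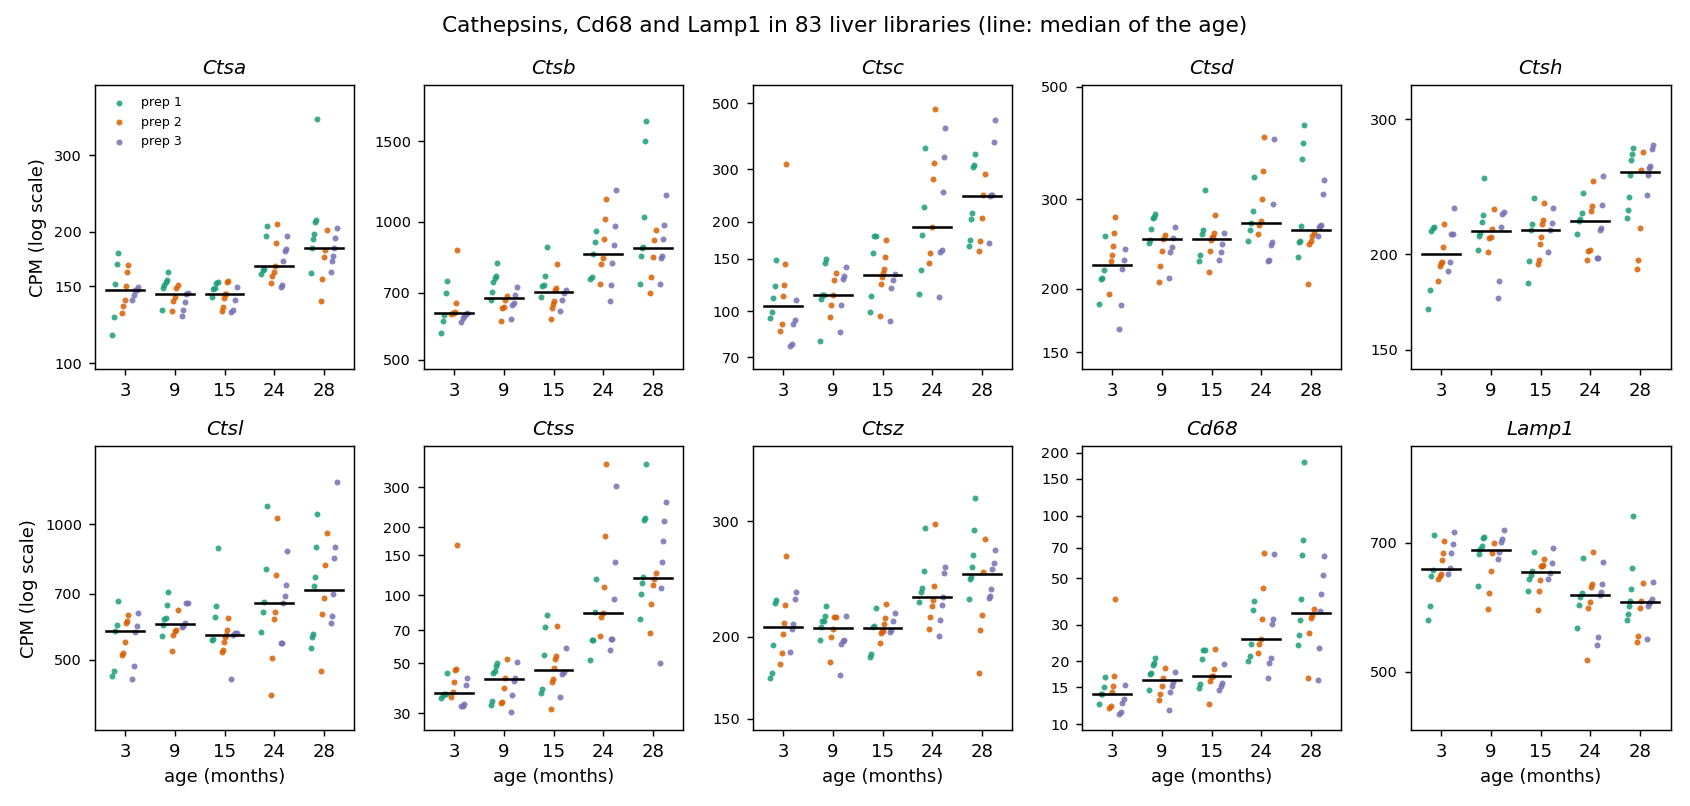
Level of the 10 genes in each of 83 liver libraries (CPM, log axis) against age in months; each point is 1 mouse, coloured by preparation, and each bar is the median of an age. Ctss, Cd68 and Ctsc are highest at 24 and 28 months, with the high point at 3 months from replicate 12 and the high Cd68 point of 180 CPM at 28 months from replicate 9.

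The liver levels parted at the later ages. At 9 months and at 15 months 0 of the 10 genes were called against 3 months in edgeR's test, where 4.69% and 7.32% of all genes were called in either direction. DESeq2 and limma voom also called 0, and 1 gene, Ctsd, had an unadjusted p under 0.05 at each age. At 24 months 9 genes were higher (25.0% of all genes) and Lamp1 was lower (24.0%). In preparations 1, 2 and 3 alone 0, 5 and 7 genes were called. Preparation 1 alone called 906 of all genes, against 7636 in all preparations. From 15 to 24 months 8 genes rose (21.6% of all genes) and Lamp1 fell by 0.10 (14.4% of all genes were lower), while Ctsh differed by 0.05 (edgeR, adjusted p 0.421). The preparations alone gave 0, 6 and 3 calls over that interval, and preparation 1 called 3 of all genes. The rises over that interval were 1.23 for Ctss, 0.87 for Cd68 and 0.82 for Ctsc on the log2 scale (edgeR, adjusted p 3.8e-05, 3.7e-04 and 8.3e-05). Ctss had medians of 36.9, 42.4, 46.4, 83.2 and 119 CPM at the 5 ages, Cd68 of 14.0, 16.3, 16.9, 25.6 and 34.2 CPM, and Ctsc of 104, 114, 132, 191 and 244 CPM.
From 24 to 28 months Ctsh alone was called, higher by 0.16 ± 0.04 (edgeR, adjusted p 0.00628; 6.18% of all genes were called higher). Cd68 differed by 0.47 and Ctss by 0.37 over that interval (edgeR, adjusted p 0.084 and 0.277), and Ctss went from 1.19 in the first preparation to -0.53 in the second. The number called from 24 to 28 months was 3 without replicate 13 at 24 months, 5 by limma voom and 2 without a preparation term. It was 2, 0 and 0 in preparations 1, 2 and 3 alone, and 0 with only those ages compared.

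**Figure D3:**
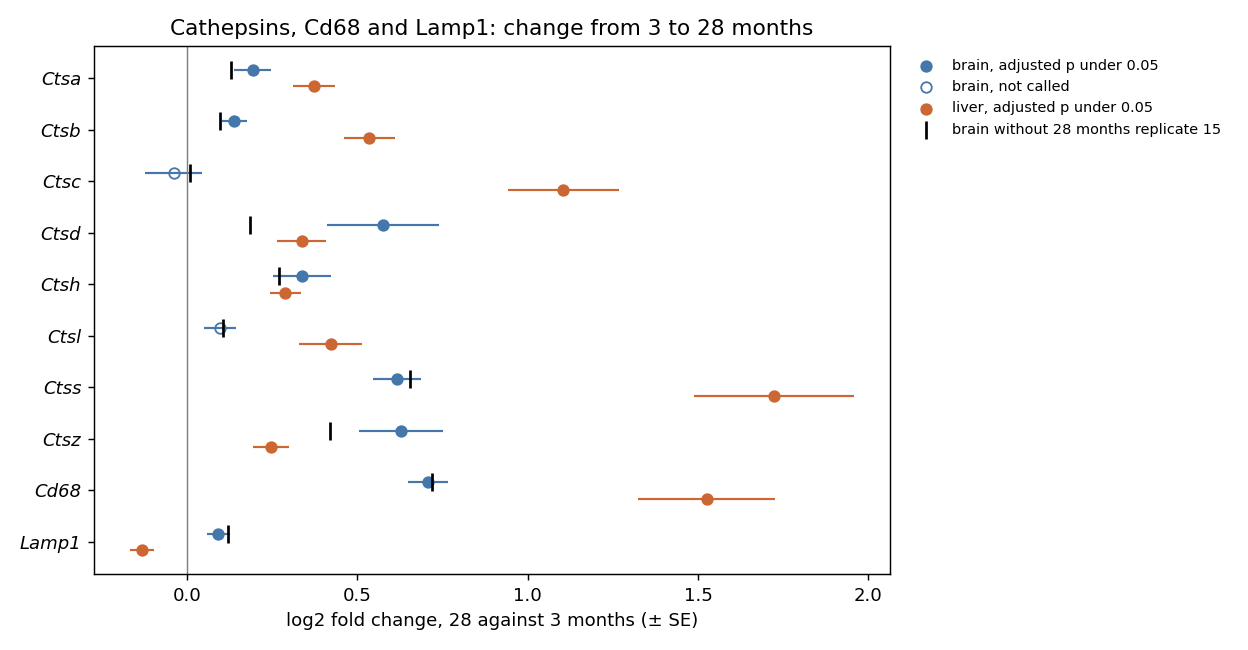
Log2 fold change from 3 to 28 months of each gene in brain and liver, with its standard error as a bar; filled points passed the test, and black ticks give the brain value without replicate 15 at 28 months. Ctss, Cd68 and Ctsc lie farthest right in the liver, Lamp1 lies on opposite sides of 0, and the tick of Ctsd sits at 0.19 beside its full value of 0.58.

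Many macrophage markers were also higher at 28 than at 3 months in both tissues. In the brain, where 16.3% of all genes were called higher, 12 of 17 microglia markers were higher at 28 months and 2 lower, and their summed level ran from 526 to 670 CPM (median 546) at 3 months and from 558 to 1237 CPM (median 683) at 28 months. The median sum at the 5 ages was 546, 644, 632, 712 and 683 CPM. The defining markers had medians of 39.1 and 41.8 CPM (P2ry12), 24.4 and 28.6 CPM (Tmem119) and 55.4 and 69.6 CPM (Cx3cr1) at 3 and 28 months. The 8 markers of border-associated macrophages, of which 1 was higher, summed to a median of 28.9 and 30.5 CPM. All 6 tested neutrophil markers were higher, with medians of 1.15 and 8.16 CPM for the summed list, and 9 of 12 monocyte and macrophage markers were higher, with 197 and 240 CPM. The monocyte and macrophage list shares Cx3cr1, Itgam, Trem2 and Csf1r with the microglia list, so the counts are not independent. Its monocyte markers were low, with medians of 0.41 and 0.57 CPM for Ccr2 and 0.085 and 0.19 CPM for Ly6c2. Of the Kupffer cell list, which shares C1qa, C1qb and C1qc with the microglia list, 5 of 7 tested genes were higher. Clec4f had 0 counts in 67 and Vsig4 in 52 of the 82 brains. Of 7 markers each, neurons had 1 lower, oligodendrocytes 1 higher, and astrocytes and endothelial cells 2 higher and 2 lower. Their part in the brain results was not tested.

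In the liver, where 31.9% of all genes were called higher, 12 of 13 Kupffer cell markers were higher at 28 months, and their sum ran from 614 to 1804 CPM (median 748) at 3 months and from 960 to 5852 CPM (median 1644) at 28 months. Clec4f, Vsig4 and Timd4, which define these cells, had medians of 118, 33.8 and 10.5 CPM at 3 months and 188, 91.8 and 28.1 CPM at 28 months. Cd163, also in that list, went the other way, with medians of 15.6 and 5.51 CPM. All 13 monocyte and macrophage markers were higher, from a sum of 137 to 507 CPM (median 160) to one of 225 to 1573 CPM (median 524). Neutrophil markers rose in 8 of 8, B cell markers in 7 of 7 and T cell markers in 7 of 8 cases, while hepatocyte markers gave 1 higher and 4 lower of 9. The livers that stood out for Ctss and Cd68 also had high marker sums: replicate 12 at 3 months had 1804 CPM of Kupffer markers, and replicate 9 at 28 months had 5852 CPM. Whether these markers account for the rise of the cathepsins was not tested.

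**Figure D4:**
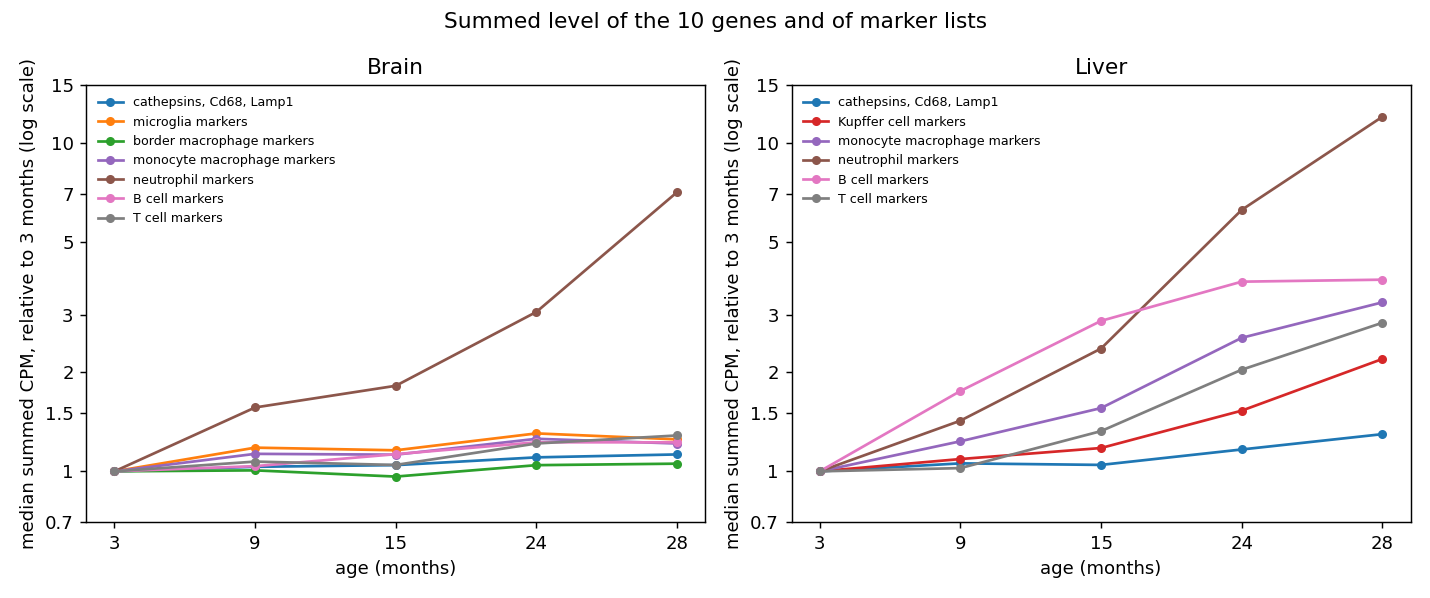
Median summed level (CPM) of the 10 genes and of marker lists at each age, relative to 3 months on a log axis, in brain (left) and liver (right). The 10 genes together went from 1157 to 1303 CPM in the brain and from 2818 to 3657 CPM in the liver, a smaller relative step than that of the neutrophil, monocyte and Kupffer lists in the liver.

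The change from 3 to 28 months was then compared between the tissues in 1 fit of all libraries (edgeR, 20328 genes). It was larger in the liver for 6 of the 10 genes (24.7% of all genes) and smaller for 2 (15.9%). The excess in the liver was 1.18 ± 0.19 log2 units for Ctsc, 1.14 ± 0.24 for Ctss and 0.85 ± 0.21 for Cd68 (adjusted p 4.4e-08, 3.1e-05 and 3.6e-04). It was 0.44 ± 0.08 for Ctsb, 0.37 ± 0.11 for Ctsl and 0.23 ± 0.08 for Ctsa (adjusted p 1.5e-06, 0.00359 and 0.0112). In preparation 2 alone the difference was -0.00082 for Ctss and -0.085 for Cd68, and the call of Ctsa was lost with RLE scaling (0.18).
Lamp1 changed in opposite directions, a difference of -0.19 ± 0.05 (edgeR, adjusted p 0.00303). Ctsz rose more in the brain, by a difference of -0.32 ± 0.12 (edgeR, adjusted p 0.0258), but this was -0.25 with an adjusted p of 0.0915 when the mouse was a block, and -0.19 and not called without the 4 brains that stood apart. For Ctsd the difference was -0.15 ± 0.16 (edgeR, adjusted p 0.48), and its direction turned: it was 0.053 with the mouse as a block, 0.15 without the 4 brains that stood apart and 0.42 in preparation 1 alone (edgeR, adjusted p 0.0491), against -0.19 and -0.79 in preparations 2 and 3. Ctsh rose by nearly equal amounts in both tissues, with a difference under its standard error.

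In the joint fit, where 1 TMM scaling spans both tissues, each of the 10 genes was higher in liver than in brain at 3 months (40.5% of all genes) and at 28 months (41.0%). Its folds at these ages were 1.66 to 1.81 times the ratios of the mean CPM with each tissue scaled on its own, the scale of the CPM values above. At 3 months Ctsh stood 37.2-fold higher in the liver by the joint scaling and 22.1-fold by the ratio of the mean CPM. Ctsl was 13.6-fold and 8.04-fold, Ctsc 13.5-fold and 8.08-fold, and Ctsz 13.0-fold and 7.72-fold higher by the 2 scalings. The joint folds of Lamp1, Cd68, Ctsa, Ctsb and Ctsd at 3 months were 4.06, 3.45, 3.14, 2.44 and 2.18, against ratios of 2.41, 2.04, 1.86, 1.44 and 1.29.
For Ctss at 3 months the direction turned with the scaling. It was 1.31-fold higher in the liver in the joint fit (edgeR, adjusted p 0.0303; 0.108 with the mouse as a block), but its median was 36.9 CPM in the liver and 58.1 CPM in the brain with each tissue scaled on its own, so no order between the tissues is given for it at that age. At 28 months Ctss was 2.88-fold higher in the liver by the joint scaling and 1.66-fold by the mean CPM, Ctsc 30.5-fold and 17.7-fold, and Cd68 6.21-fold and 3.69-fold.

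Levels were compared between genes as median CPM per kilobase of exon. In the brain at 3 months the order was Lamp1 (101), Ctsb (74.1), Ctsd (71.2), Ctss (42.8), Ctsz (18.3), Ctsa (16.8), Ctsl (10.5), Cd68 (5.99), Ctsc (2.45) and Ctsh (1.99). The ranges of neighbours in that order overlapped for Ctsb and Ctsd, for Ctsz and Ctsa, and for Ctsc and Ctsh, and for no other neighbours. In the liver at 3 months it was Lamp1 (244), Ctsz (144), Ctsb (104), Ctsd (94.9), Ctsl (89.0), Ctsh (44.4), Ctsa (31.2), Ctss (27.2), Ctsc (17.9) and Cd68 (11.1). There the ranges of neighbours were separate for Lamp1 and Ctsz and for Ctsl and Ctsh alone. At 28 months Ctss per kilobase was 66.6 in the brain, the fourth level in that order at both ages, and 87.9 in the liver, where it stood above Ctsh and Ctsa.

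Differences between mice of the same age were examined after removing the means of age and preparation from log2 CPM. In the liver 27 of 45 pairs of the genes correlated with an adjusted p under the threshold, all of them positively (permutation test within age, 100000 permutations, adjusted over 130 relations in both tissues). The median r over the 45 pairs was 0.37. The share of pairs passing among all genes was not computed, so these counts are not set against other genes. Ctss and Cd68 had r = 0.94 and rho = 0.92 over 83 livers, and r = 0.93 without the 2 farthest livers (permutation p 1.0e-05, the smallest that can be given, adjusted p 3.8e-05). Within the preparations r was 0.93, 0.96 and 0.95. Among the other pairs Ctsb and Cd68 had 0.88, Ctsc and Ctss 0.86, Ctsb and Ctss 0.83 and Ctsd and Cd68 0.76, whereas Ctsh and Ctsl had r between -0.28 and 0.03 with Ctss, Cd68 and Ctsc.

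The macrophage marker scores, each a mean of standardised marker levels, split the liver genes in the same way. How many of all genes pass with these scores was not computed in either tissue. Ctss had r = 0.95 with the monocyte and macrophage score and 0.89 with the Kupffer cell score, and Cd68 had 0.89 and 0.91. The corresponding values were 0.86 and 0.82 for Ctsc, 0.79 and 0.85 for Ctsb, 0.68 and 0.69 for Ctsd and 0.41 and 0.54 for Ctsa. Ctsh, Ctsl, Ctsz and Lamp1 did not pass by r with either score, with r from -0.24 to 0.26, although the rank correlation of Ctsz with the monocyte and macrophage score passed (rho = 0.26, permutation test, adjusted p 0.0352).

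In the brain 25 of 45 pairs passed, 23 positively, with a median r of 0.28. Here too the share over pairs of all genes was not computed. Ctsd and Ctsz had r = 0.93 and rho = 0.75 over 82 brains, Ctsa and Ctsz 0.90 and 0.80, and Ctsa and Ctsd 0.88 and 0.71 (permutation test, adjusted p 3.8e-05 for each). Without the 4 libraries that stood apart these r were 0.75, 0.77 and 0.67. The median r over the 45 brain pairs was 0.41 without them, and some r were higher, such as Ctss with Ctsz from -0.02 to 0.45, Ctsz with Lamp1 from -0.17 to 0.51 and Ctsh with Ctss from 0.16 to 0.49. Others with Ctsb were lower: Ctsa and Ctsb went from 0.83 to 0.46, Ctsb and Ctsz from 0.81 to 0.44, and Ctsb and Ctsh from 0.60 to 0.13. The negative pairs, Ctsc with Ctsb at -0.50 and with Ctsa at -0.47 (permutation test, adjusted p 0.0245 for each), had r near 0 without those libraries and so rest on them. The microglia score passed with Cd68 (r = 0.61), Ctsh (0.60), Ctsz (0.57), Ctss (0.55) and Ctsa (0.47). Without the 4 libraries r was 0.65, 0.52, 0.60, 0.74 and 0.37 for these genes in that order. By rank the microglia score also passed with Ctsd (rho = 0.48), Lamp1 (0.38) and Ctsb (0.28; permutation test, adjusted p 6.3e-05, 0.00104 and 0.0191), whose r did not pass. Their r without the 4 libraries was 0.41, 0.47 and 0.10. With the score of border-associated macrophages Ctsl had 0.47, Ctsh 0.38, Ctsc 0.37, Cd68 0.27 and Lamp1 0.24, all past the threshold. By rank alone Ctsa (rho = 0.32), Ctsz (0.31) and Ctsd (0.29) also passed with that score (permutation test, adjusted p 0.00761, 0.00824 and 0.0111).

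**Figure D5:**
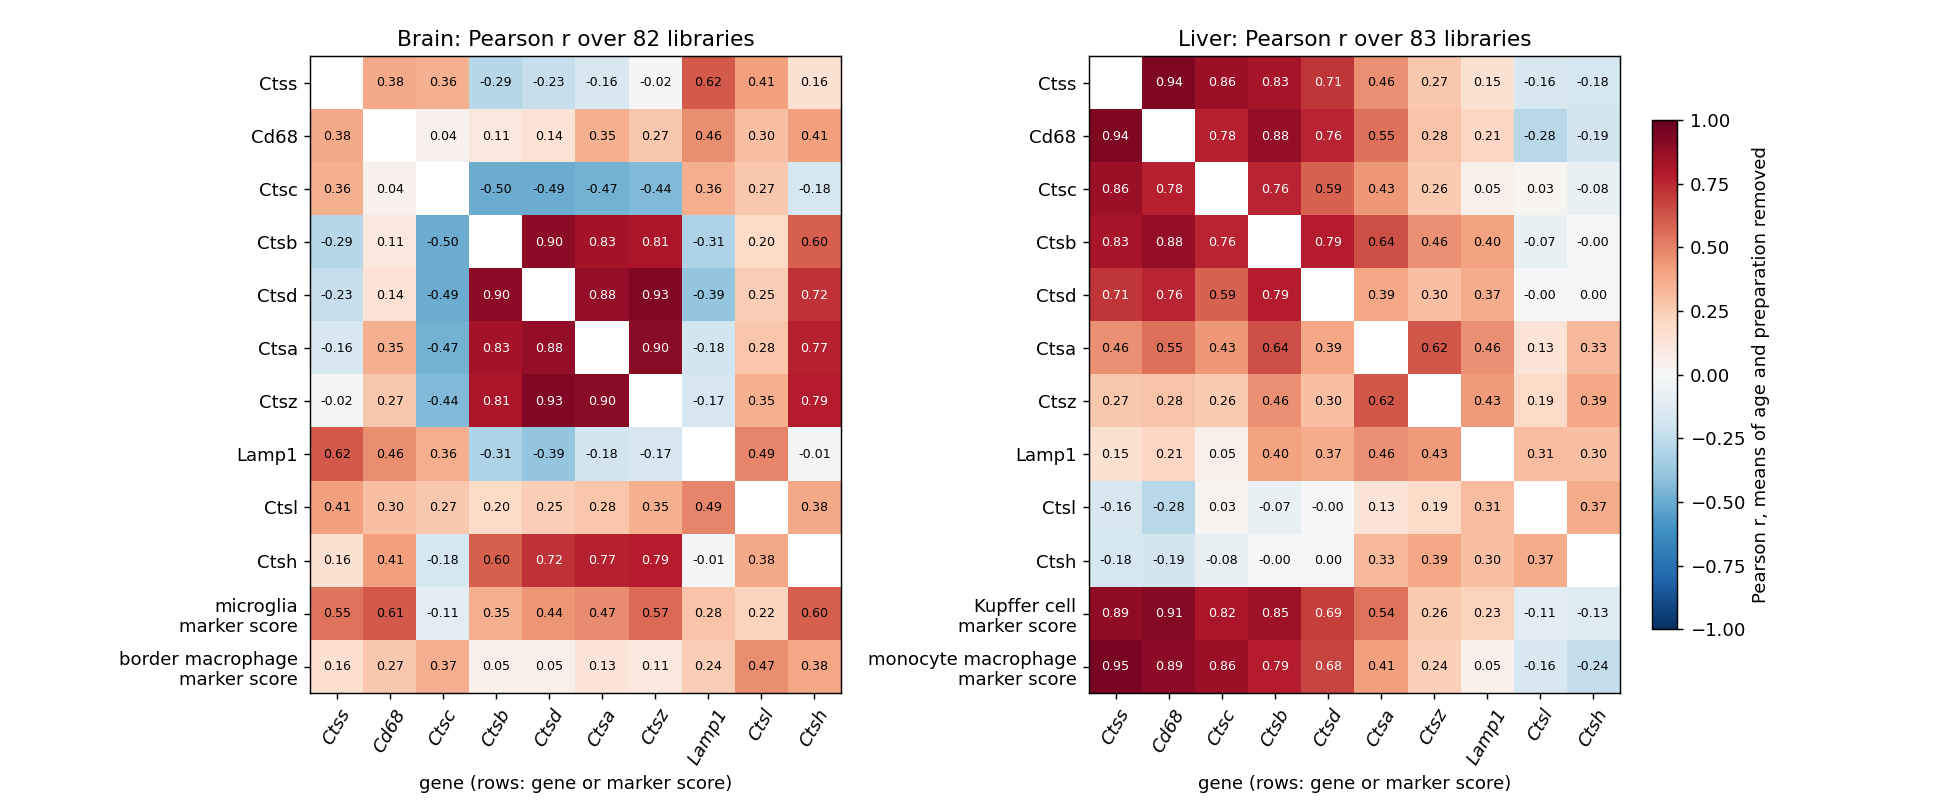
Pearson r between the genes, and between genes and macrophage marker scores, over 82 brains (left) and 83 livers (right) after removing the means of age and preparation. In the liver Ctss, Cd68, Ctsc, Ctsb and Ctsd form 1 dark block with both scores and Ctsl and Ctsh stay pale, while in the brain Ctsb, Ctsd, Ctsa, Ctsz and Ctsh form the block, in which Ctsb with Ctsh falls from 0.60 to 0.13 without the 4 libraries that stood apart.

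Within mice, no relation between the level in the brain and that in the liver passed the test. Over 82 mice with both tissues, 0 of the 10 genes passed (permutation test, adjusted over 10 genes). The highest was Ctss, with r = 0.28 and rho = 0.17 (permutation p 0.0274, adjusted p 0.274), and r = 0.036 without the brains that stood apart. The lowest was Ctsa, with r = -0.16 (permutation p 0.169, adjusted p 0.565).

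The genes whose residual levels were most like each of the 10 were sought among all genes whose mean reached 5 CPM. In the liver, over 83 libraries, Ctss was most like Slfn2 and Laptm5 (r = 0.97 for each) and Cd68 most like Laptm5 and Cd5l (0.95 for each). Ctsb was most like Lgmn (0.91), Ctsc most like Il18bp (0.89) and Ctsd most like Npc2 (0.86). Ctsh was nearest to Igbp1 (0.79), Ctsl to Kng2 (0.76) and Kng1 (0.75), Ctsz to Nagpa (0.74), Ctsa to Colgalt1 (0.71) and Lamp1 to Glmp (0.68). Kng1 and Kng2 encode kininogens, which hepatocytes secrete, and Laptm5 is a lysosomal membrane protein of blood cells. In the brain the nearest genes moved with the libraries used. Over all 82 brains Ctsd was nearest to Tmed3 (r = 0.96), Ctsz to Clu (0.94), Ctsb to Tex264 (0.92), Ctsa to Fxyd1 (0.91), Ctsc to Lamp2 (0.86) and Lamp1 to Car2 (0.85). Ctsh was nearest to Cd63 (0.80), Ctss to Cd53 (0.79), Ctsl to Acadl (0.76) and Cd68 to Mlc1 (0.70). Without the 4 libraries that stood apart (78 libraries, a choice made after seeing the data), Npc2, a cholesterol carrier of the lysosome, was nearest to Ctsd (0.87), Ctsl (0.81) and Ctsz (0.81). Ctsh was nearest to Lyz2 (0.74), Ctsc to Lamp2 (0.75), Cd68 to Gnai2 (0.71) and Lamp1 to Pla2g16 (0.81).

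Other lysosomal genes were followed in 7 lists holding 114 genes, of which the brain fit tested 105 and the liver fit 106. In the brain, from 3 to 28 months, 16.3% of all genes were called higher and 12% lower. There 17 of 39 further hydrolases were higher and 1 lower, with a median log2 fold change of 0.09. Dnase2a, the lysosomal DNase, rose by 0.59 and Fuca1, a fucosidase, by 0.39, while Lipa, the acid lipase, fell by 0.25 (edgeR, adjusted p 0.00788, 0.0023 and 0.00145). Among 5 further cysteine proteases 3 were higher, including Ctso by 0.32 and Lgmn by 0.20 (edgeR, adjusted p 3.4e-07 and 0.00116). Of 21 other membrane proteins 5 were higher, with Tmem192 at 0.43 and Laptm5 at 0.36, and 1 was lower, Mfsd8 at -0.18.
Of the V-ATPase, the proton pump of the lysosome, 2 of 19 subunits were higher in the brain (Atp6v1g1 at 0.22 and Atp6v1e1 at 0.14) and Atp6v0a2 was lower at -0.19. Of 6 cathepsin inhibitors 2 were higher: Cst3, cystatin C, at 0.43 (edgeR, adjusted p 0.00797), and Cst7, cystatin F, from a mean of 0.122 to 0.705 CPM. Cst7 is under the level set for naming a gene and was added after its value was seen, so no fold or p-value is given for it. Among 15 genes of sorting and regulation 4 were higher and 1, Gnptab, was lower by 0.13 on the log2 scale.

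In the liver, where 31.9% of all genes were called higher and 30.0% lower, 25 of the 39 hydrolases were higher and 5 lower, with a median log2 fold change of 0.27. Galns, a sulfatase, rose by 0.88, while Arsa, arylsulfatase A, fell by 0.80 and Dpp7 by 0.40 (edgeR, adjusted p 2.4e-13, 1.4e-10 and 4.8e-06). Of the 5 further cysteine proteases 4 were higher, led by Ctsw at 1.81 and Lgmn at 1.10, and Ctsf was lower at -0.14 (edgeR, adjusted p 1.9e-09, 1.3e-10 and 0.0418). Of 20 other membrane proteins 9 were higher and 4 lower: Laptm5 rose by 1.69 and Cd63 by 1.37, whereas Mfsd8 fell by 0.48 and Lamp2, the partner of Lamp1, by 0.23 (edgeR, adjusted p 1.1e-10, 1.3e-10, 4.9e-12 and 7.3e-06). Lamp1 and Lamp2 were thus both lower in old livers while 9 other lysosomal membrane genes were higher.
Of 20 V-ATPase subunits 6 were higher and 4 lower in the liver, no larger a share than among all genes. Atp6v0d2, a subunit of macrophages and osteoclasts, went from a mean of 1.68 to 25.3 CPM, a log2 difference of 3.84 (edgeR, adjusted p 1.3e-14), and Tcirg1 rose by 0.45. Of 5 tested inhibitors 4 were higher, including Serpinb1a at 1.56 and Serpinb6a at 1.06. Among 16 genes of sorting and regulation 4 were higher, including Tfec at 0.70, and 5 were lower, including Sort1 at -0.63 and Rraga at -0.37, which are also near the shares over all genes.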

How the data were processed

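RNA was measured in brain and liver by polyA-selected, stranded sequencing after QIAzol and chloroform extraction, per the labels' protocols. The authors deposited whole-number read counts per Ensembl gene, 1 table for each tissue. The submitters' processing notes name cutadapt 2.8, HISAT2 2.1.0, SAMtools 1.9, featureCounts of Subread 2.0.1 and the builds GRCm38.p6 and mm10. The annotation and the strand setting of the counting are not given in the sources used here. Symbols were matched for 55144 of 55471 identifiers, and 0 columns were left unused. The labels list a liver library and no brain library for mouse 6 at 3 months.

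Counts were tested with edgeR 4.0.16 in R 4.3.3 (quasi-likelihood F test, TMM scaling, filterByExpr by age), with age and preparation in the model and all ages of a tissue in 1 fit. P-values were adjusted by Benjamini-Hochberg over all tested genes and called under 0.05. The standard error is the log2 fold change over the square root of F, and CPM uses the TMM-scaled library. A joint fit of both tissues tested differences between them. DESeq2 1.42.0 and limma 3.58.1 (voom with quality weights), RLE scaling, no filter, no preparation term, 2 ages only, single preparations, a replicate or mouse block and omitted libraries were alternatives. The test scripts were first tested on simulated data. Correlations used log2 CPM (prior count 2, means of age and preparation removed) and 100000 permutations within age (numpy 2.4.6, scipy 1.17.1, pandas 2.3.3).

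Brain and liver share mouse numbers in the labels, which pairs them by animal. Over 14033 genes the within-mouse correlation of deviations was -0.155 to 0.255 (median 0.0499), above 0.1 in 19 of 82 mice. The labels do not say more on how mice were housed or sampled, so p-values measure the spread between these mice. The fewest reads behind a value of the 10 genes were 46 in the brain and 90 in the liver.

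The 10 genes and all lists were chosen with earlier results of these data known. Besides the 10 genes, the text names from each lysosomal list up to 2 genes with the highest and 2 with the lowest log2 fold change per tissue, if called, averaging 1 CPM or more and moving one way in all preparations. Marker lists are given as counts and sums, and 14 of the 243 listed genes are in more than 1 list. The genes so named are given in the results, except for a result that is not reported here.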

Additional observations from a re-analysis of the deposited data

Results flagged for a closer look

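For 8 of the 10 genes the change from 3 to 28 months differed between the tissues in a test of that difference (edgeR interaction, adjusted p under 0.05; 40.6% of 20328 genes were called in either direction). The liver change exceeded the brain change by 1.18 for Ctsc, 1.14 for Ctss, 0.85 for Cd68, 0.44 for Ctsb, 0.37 for Ctsl and 0.23 for Ctsa on the log2 scale. It was below the brain change by -0.19 for Lamp1 and -0.32 for Ctsz. The Ctsz difference was not called with the mouse as a block (-0.25) and that of Ctsa was 0.18 and not called with RLE scaling. No group held 10 or fewer mice, so single high libraries were not screened by a rule.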

How the results depend on the processing

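The number of the 10 genes called varied with the processing, and causes were not tested beyond the smaller number of mice in single preparations. With limma voom the number was 2 for brain 9 against 3 months, 3 for 15 against 3 months, 8 for 24 against 3 months, 5 for 24 against 15 months and 1 for 28 against 24 months, and 5 for liver 28 against 24 months. Voom also called more of all genes in these brain comparisons: 442 against 59, 822 against 163, 4959 against 1882, 848 against 137 and 899 against 204. For liver 28 against 24 months it called 4157 against 2385. In preparations 1, 2 and 3 alone it was 0, 0 and 0 (brain, 15 against 3 months), 2, 2 and 1 (24 against 3), 4, 2 and 3 (28 against 3) and 0, 0 and 0 (24 against 15). In the liver it was 0 and 5 in preparations 1 and 2 (24 against 3 months), 0 in preparation 2 (28 against 3), 0 and 3 in preparations 1 and 3 (24 against 15) and 2, 0 and 0 (28 against 24). Single preparations also called fewer of all genes. The lowest counts over all genes for these comparisons, in the same order, were 0, 92, 368 and 0 in the brain. In the liver they were 906, 2457, 3 and 0. Preparation 2 without replicate 12 at 3 months gave 6 (24 against 3 months) and 4 (28 against 3). Liver 28 against 24 months gave 0 with those ages alone and 2 with no preparation term. The number of differing changes between the tissues was 5, 0 and 4 in the preparations, and that of correlated pairs and scores was 35 in preparation 3 against 74 in all.

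Without the 4 brains that stood apart the number was 2 at 15 and 8 at 24 months against 3 months, and 1 from 24 to 28 months. That alternative, and those without replicate 12 of the 3-month livers, were chosen after seeing the data. Leaving out each library in turn gave 7 to 9 calls in the brain and 10 to 10 in the liver from 3 to 28 months. DESeq2 gave 7 in the brain, with no adjusted p for Ctsd.

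Some values changed sign. Ctsc in the brain (28 against 3 months) was 0.050 with voom, 0.084 in preparation 2, 0.0072 without the 4 brains and -0.064 to 0.011 when each library was left out. The difference between the tissues was reversed for Ctsh with no filter (0.032), voom (0.024), preparation 1 (0.078), without the least correlated library of each tissue (0.0038) and without the 4 brains (0.031). That of Ctsd became 0.055, 0.42, 0.13 and 0.15 with voom, preparation 1 (edgeR, adjusted p 0.0491, past the threshold) and those 2 omissions. In preparation 2 it was -0.00082 for Ctss and -0.085 for Cd68, against 1.14 and 0.85 in all preparations.

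With the mouse as a replicate block 7 differences between the tissues were called, without Ctsz, and Ctsd was 0.053 and Ctsh 0.0013; it also ended the call of Ctss between brain and liver at 3 months (9 of 10) and changed no other call. Within a tissue mice of different ages share a replicate number only: same-numbered brains or livers had median correlations of -0.056 to 0.093, 0 or 1 of them was most like its own number, and a block on it left 8 brain and 10 liver calls.

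Over all genes, the number called from 3 to 28 months was 5291 in the brain (368 to 7716 over the alternatives) and 9639 in the liver (2457 to 11813), the lowest in single preparations. Depth limits Ctsc, Ctsh and Cd68 in the brain, with as few as 46, 104 and 92 reads in a library, and Cd68 in the liver, with as few as 90.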

Other observations

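Beyond replicate 15 at 28 months, replicate 13 at 24 months was the highest 24-month brain for several of these genes. It had 476 CPM of Ctsd, 79.6 CPM of Ctsz, 143 CPM of Ctss, 122 CPM of Ctsa and 19.8 CPM of Ctsh, against group medians of 190 CPM for Ctsd, 36.1 CPM for Ctsz and 84.0 CPM for Ctss. Its summed microglia markers were 1076 CPM. The SD of Cd68 between livers of 1 age was 6.78, 2.52, 3.20, 14.9 and 37.4 CPM at 3, 9, 15, 24 and 28 months, and that of Ctss 32.3, 7.20, 14.6, 92.2 and 81.7 CPM. The 3-month values hold replicate 12, and whether the spreads differ between ages was not tested.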
